A study of Mus musculus with 209 samples.

Results

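The 70 genes described here code for the proteins of the cytosolic ribosome in the mouse, 28 of the small subunit (Rps) and 42 of the large subunit (Rpl). They were chosen by symbol (Rps or Rpl, a number and at most a closing a or x, which leaves out pseudogenes) and by a mean of at least 50 CPM (counts scaled to the library total) over the libraries of the 2 h cytokine screen. Of the 55011 gene symbols in the count table, 72 had such a symbol, and 70 passed the level. Just outside were Rpl24 at 13.2 CPM and Rps10 at 35.2 CPM, and just inside were Rpl23a at 55.6 CPM and Rpl13a at 64.6 CPM. All 70 genes had counts in all 209 libraries and all 70 passed the filter on low counts in every comparison.

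Each ribosome holds a single copy of nearly all of these proteins, so cells make them in matched amounts, and the genes are among the most strongly expressed in any cell. Their mRNAs are known as TOP mRNAs: they start at a C followed by a run of pyrimidines, and this start lets the cell switch their translation with nutrients and growth signals through the kinase mTORC1 and the RNA-binding protein Larp1. Lymphocytes at rest hold a small cytoplasm with stored ribosomal protein mRNA, whereas mature neutrophils are short-lived cells that have stopped dividing.

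The libraries came from C57Bl/6J mice aged 5 to 8 weeks, with no transgene or deletion named. In the screen, mice received 5 ug of IL1b, IL6 or TNFa in 120 uL of PBS, or 120 uL of PBS alone, into a vein, and 1000 cells of each of 14 immune cell types were sorted 2 h later from spleen or peritoneal cavity. Myeloid types were neutrophils (GN), Ly6C+ monocytes (Mo.6C+), macrophages of the peritoneal cavity (MFpc) and of the splenic red pulp (MFrp), mast cells (MC), and dendritic cells, either plasmacytoid (pDC) or CD8+ (DC.8+). Lymphoid types were B cells of the follicle (B.fo) and of the marginal zone (MZB), NK cells, and T cells in 4 kinds: CD8 (T.8), CD4 (T.4), regulatory (Treg) and gamma-delta (Tgd). The screen held 183 libraries, with 4 or 5 PBS libraries for each type and 3 for each cytokine, except that 2 were made for TNFa in T.8, for IL6 in B.fo, MC and NK, and for IL1b in DC.8+ and MC. No pDC library with IL1b was analysed here. A time course of 20 libraries followed MFpc and Mo.6C+ after TNFa for 2, 4, 8 and 24 h, each time in duplicate libraries (2 per group), with PBS at 24 h as control. Another experiment compared 3 Mo.6C+ libraries from mice given 1 ng of LPS in 120 uL with 3 control libraries, with no time given. Nothing in the labels ties a library to a single animal, so the p-values measure the spread between libraries, which may in part be technical.

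Library totals ran from 1094567 to 9291121 counts (median 4702887), and the genes detected from 13889 to 29259. The 70 genes together took 0.283 to 7.73% of a library's counts (median 2.94%). Counts on the 303 ribosomal protein pseudogene symbols stayed between 0.00256 and 0.0303%. How reads that fit several copies of a gene were counted, and whether strand was used, was given by no source used here, so levels of single members are uncertain to that extent. In the GENCODE vM21 annotation, 33 members shared exon bases with another annotated gene, 14 of them with a protein-coding gene. The fixed marker genes of each type were higher in every one of its own screen libraries, PBS and cytokine, than in any screen library of another type for 13 of the 14 types. The exception was the T.4 list, whose lowest own library (8.48 on the log2 CPM scale, with IL1b) was below a Treg library (9.05). For 158 libraries the title gives spleen but the tissue field gives peritoneal cavity, and the title was followed only for type and treatment.

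The starts of the members that the results below turn on are printed here because the TOP start is the sequence that sets these mRNAs apart. RefSeq windows on GRCm38.p6 were at hand for 51 of the 70 members. Each line gives 15 bases before and 15 bases after the annotated start, on the gene's strand, and capitals mark a TOP start, taken here as a C within 5 bases of the annotated start followed by at least 4 more C or T. The first 8 have such a start and the last 3 do not.
Rps9 (chr7:3704026-3704055, + strand): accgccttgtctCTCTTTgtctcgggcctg
Rpl12 (chr2:32961697-32961726, + strand): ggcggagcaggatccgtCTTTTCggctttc
Rps27 (chr3:90213634-90213663, - strand): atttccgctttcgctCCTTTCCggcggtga
Rps26 (chr10:128626492-128626521, - strand): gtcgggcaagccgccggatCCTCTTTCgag
Rps2 (chr17:24720048-24720077, + strand): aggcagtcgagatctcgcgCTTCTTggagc
Rps15a (chr7:118116133-118116162, - strand): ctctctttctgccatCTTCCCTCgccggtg
Rpl31 (chr1:39367836-39367865, + strand): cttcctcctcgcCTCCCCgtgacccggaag
Rpl35 (chr2:39005117-39005146, - strand): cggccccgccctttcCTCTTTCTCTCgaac
Rpl4 (chr9:64173372-64173401, + strand): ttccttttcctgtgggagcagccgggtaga
Rpl10a (chr17:28328456-28328485, + strand): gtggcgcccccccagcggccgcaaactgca
Rps19 (chr7:24884577-24884606, + strand): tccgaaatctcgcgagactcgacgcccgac

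Over all 51 windows, 24 members (47.1%) had a TOP start, against 18.4% of all 27025 windows. In the whole window of 300 bases, searched on both strands, CCGGAAG (the core letters of an ETS site) stood in 19 members (37.3%) and in 9.15% of all windows. The pyrimidine run CTTTCC stood in 23 members (45.1%) against 26.4%, and the TATA box letters TATAAA in 4 members (7.84%) against 14.2%. These matches describe the letters and were not tied to any binding or to the counts.

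With PBS, the 70 genes were most abundant in T cells and B cells and least abundant in mast cells and neutrophils. Their summed share of a library was 6.78 ± 0.43% (SD, n = 5) in T.4, 5.86 ± 0.33% (n = 4) in T.8, 5.80 ± 0.50% (n = 4) in MZB, 5.28 ± 0.59% (n = 5) in Treg and 4.87 ± 0.35% (n = 5) in B.fo. It was 4.19 ± 0.18% (n = 4) in DC.8+ and 3.63 ± 0.53% (n = 5) in Tgd. Next came pDC at 2.90 ± 0.17%, NK at 2.83 ± 0.23%, Mo.6C+ at 2.77 ± 0.23%, MFpc at 2.33 ± 0.18% and MFrp at 2.06 ± 0.33% (n = 5 each). GN (0.624 ± 0.073%, n = 5) and MC (0.583 ± 0.068%, n = 4) stood far below all other types, and their ranges overlapped. In this order T.8, MZB and Treg did not differ beyond their spread, nor did pDC, NK and Mo.6C+. These are shares of a library's counts, and in bulk libraries fewer cells of a type within a pool and less RNA per cell cannot be told apart.

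**Figure D1:**
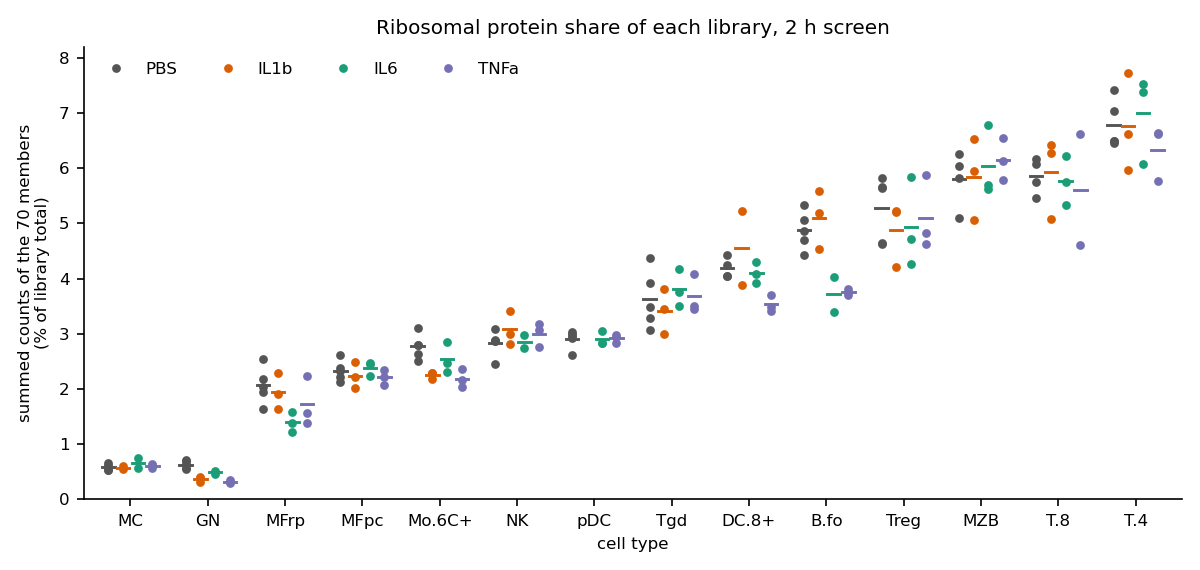
Summed counts of the 70 genes as percent of the library total (y axis) in the 14 cell types of the 2 h screen (x axis, ordered by the PBS mean); points are libraries coloured by treatment and lines are group means. Neutrophil and mast cell libraries with PBS lie below 1% and CD4 T cell libraries average 6.78%.

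Each type was then set against the mean log level of the other 13 with edgeR's quasi-likelihood test over 17153 genes (Benjamini-Hochberg adjusted p under 0.05, TMM scaling, which sets libraries to a common level by the bulk of their genes). CPM values of single genes are scaled this way within a fit, so the same group can read differently in another fit. In T.4 and T.8 all 70 members were higher (22.9 and 21.6% of all genes tested were), with median log2 differences of 1.06 and 0.87 against 0.02 and 0.14 over all genes. In MZB 69, in B.fo 68, in DC.8+ 68 and in Treg 67 of 70 were higher, where 21.2, 21.8, 25 and 23.7% of all genes were. In MC all 70 were lower (23.7% of all genes), with a median of -2.49 against -0.25 over all genes. In GN 67 were lower and 1 higher (31.3 and 31.7% of all genes), with a median of -1.78 against -0.18. MFrp had 50 lower and 0 higher (15.4 and 26.6%), with a median of -0.40.

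The other 5 types sat near the middle, and there the scaling set the count. MFpc had 23 members higher and 3 lower (27.3 and 18.7% of all genes), but 2 higher and 45 lower when libraries were scaled by their totals alone, which moved the median of all genes from -0.12 to -0.58. Tgd had 5 higher and 4 lower (22.1 and 9.33%), but 50 higher and 0 lower by library totals. NK had 1 higher and 28 lower (21.6 and 11%), and 6 higher and 9 lower by library totals. Mo.6C+ had 12 higher and 4 lower (22.9 and 14.6%), and 7 and 10 by library totals. pDC had 3 higher and 7 lower (23.8 and 11.8%), and 4 and 3 by library totals. Of all 17153 genes, 2956 were higher and 5908 lower in MFpc by library totals, and 7188 and 890 in Tgd. These were 5346 and 1409 in NK, 3385 and 3259 in Mo.6C+, and 4587 and 1725 in pDC. Without the replicate 2 libraries of all types NK had 17 lower and pDC 12, and without replicate 1 or 5 pDC had 3 or 4. Tgd had 2 lower without replicate 1 or 2, and MFpc 5 without replicate 1 or 4 and 1 without replicate 2.

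Members differed in how far they ranged over the types. T.4 was the highest type for 46 members, MZB for 15, DC.8+ for 7, and pDC and T.8 for 1 each. MC was the lowest type for 52 and GN for 18. The ratio of a member's highest to its lowest type mean ran from 4.80 to 40.0 (median 12.6). The widest were Rpl12 (40.0-fold), a protein of the base of the stalk that receives elongation factors, Rpl10a (35.3-fold), which forms the opposite stalk, Rpl3 (32.8-fold), which lies close to the peptidyl transferase centre, Rps19 (27.9-fold), whose human gene is the most often mutated in Diamond-Blackfan anaemia, and Rps15a (27.4-fold). The narrowest were Rpl41 (4.80-fold), the shortest ribosomal protein, Rpl34 (5.23-fold) and Rpl7a (5.88-fold). Per kilobase of transcript, mean levels over the types were highest for Rps27 (2396 CPM per kb), were also high for Rps14 (1989), and were lowest for Rpl13a (63.9), Rpl22 (71.9) and Rps20 (72.9). These values rest on the 1 annotated transcript taken for each gene, which for Rps20 has 3706 bases, 357 of them coding.

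Rpl12 was farthest above the mean of the other types in T cells, which does not set them against B cells or DC.8+ alone. Its PBS level was 818 ± 104 CPM (SD, n = 5) in T.4, 626 ± 84 (n = 4) in T.8 and 512 ± 86 (n = 5) in Treg, against 38.5 ± 5.3 (n = 4) in MC and 20.5 ± 9.2 (n = 5) in GN. Rpl12 was the called member farthest above the other types in all 4 T cell types, by 2.01 (SE 0.12) on the log2 scale in T.4, 1.60 in T.8, 1.29 in Treg and 0.56 in Tgd. Between these ends, NK at 177 ± 40, pDC at 181 ± 57 and MFrp at 169 ± 44 CPM did not differ beyond their spread.

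Other members stood out in single types. Rps2, a small subunit protein at the mRNA entry channel, was highest in DC.8+ at 545 ± 70 CPM (n = 4), 1.27 (SE 0.19) above the other types on the log2 scale. Its levels in T.4 (516 ± 201) and MZB (505 ± 181) overlapped with it. In B.fo Rps19 was farthest above, by 1.20, and in MZB Rpl36a, by 1.38, at 324 ± 37 CPM (n = 4). Rpl10, which joins the large subunit late and lets it meet the small one, was farthest above in both MFpc (0.80) and Mo.6C+ (0.71). Rps27 was farthest below in MFpc (-0.77) and MFrp (-1.03). Rps9 was farthest below in NK, by -0.85 (SE 0.08). In MC Rps15a was farthest below, by -3.63 (SE 0.14), at 39.1 ± 9.96 CPM (n = 4).

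Rpl31 stood out in pDC. Its PBS level there was 242 ± 20 CPM (n = 5), 1.77 (SE 0.09) above the other types on the log2 scale, and the next type, T.4, had 138 ± 16 CPM. As a share of the members' own counts, which no scaling can change, Rpl31 made up 0.816 to 0.919% in the 5 pDC libraries against means of 0.181 to 0.299% in the other types. The share was as high with IL6 (0.860%) and TNFa (0.929%). In the annotation 25.3% of the exon bases of Rpl31 lie under Tbc1d8, a protein-coding gene on the opposite strand. Tbc1d8 was also highest in pDC, at a mean of 988 CPM of the library total, followed by DC.8+ at 659 CPM, where the share of Rpl31 was 0.295 ± 0.042%. The part of Tbc1d8 reads in the Rpl31 counts was not tested.

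Neutrophils differed not only in how much ribosomal protein mRNA they held but in which. Rps9, a small subunit protein at the mRNA entry site that bears on the accuracy of decoding, made up 15.3 to 16.4% of the members' counts in the 5 GN libraries with PBS (15.9 ± 0.41%, SD), against 2.33 to 4.98% in every PBS library of the other 13 types. Its level in GN was 1483 to 1793 CPM, in the range of MZB (1711 ± 175 CPM, n = 4) and DC.8+ (1529 ± 130, n = 4). It was the only member called higher in GN than in the other types, by 0.67 (SE 0.07, adjusted p = 4.14e-13) on the log2 scale, a difference that turned to -0.10 by library totals. No exon of Rps9 is shared with another annotated gene. Rps27a, which is made as a fusion with ubiquitin, made up 3.53 ± 0.28% in GN against means of 0.704 to 1.59% elsewhere, and Rps27 4.96 ± 0.22% against 1.33 to 3.14%.

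Large subunit proteins went the other way in GN. Rpl3 made up 0.577 ± 0.23% of the members' counts there, against means of 3.14 to 5.97% in the other types. Its level was 41.8 to 91.9 CPM in the GN libraries and 382 ± 30 CPM in MC, the next lowest, and GN lay -4.32 (SE 0.17, adjusted p = 1.1e-32) from the other types on the log2 scale. Rpl4, which lines the exit tunnel, made up 2.89 ± 0.28% against 6.51 to 8.94%. Rpl10a made up 0.107% against 0.497 to 0.752%, and Rpl12 0.197% against 0.451 to 1.42%. In MC, whose summed share was as low, Rps9 stayed within the range of the other types and Rpl3 was at its highest share of all types (5.97 ± 0.21%).

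With cytokine, the members changed in few of the 41 comparisons with PBS. No member passed the test in 27 of them, 63 calls were of higher and 99 of lower levels, and 8 or more members were called only in MFpc and NK with TNFa, in GN with each cytokine and in B.fo with IL6 and TNFa. The 3 comparisons of a type share its PBS libraries. Because library composition shifted in some types, counts are given under TMM scaling and under library totals. The member called higher most often was Rpl10a (5 comparisons higher, 0 lower), followed by Rpl4 (4 and 1), Rps9 (3 and 3), Rpl3 (3 and 1) and Rps25 (3 and 2). Rpl17 was called lower in 5 and higher in 0, Rps27 lower in 4 and higher in 1, and Rpl41 and Rpl32 lower in 4 and higher in 0.

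**Figure D2:**
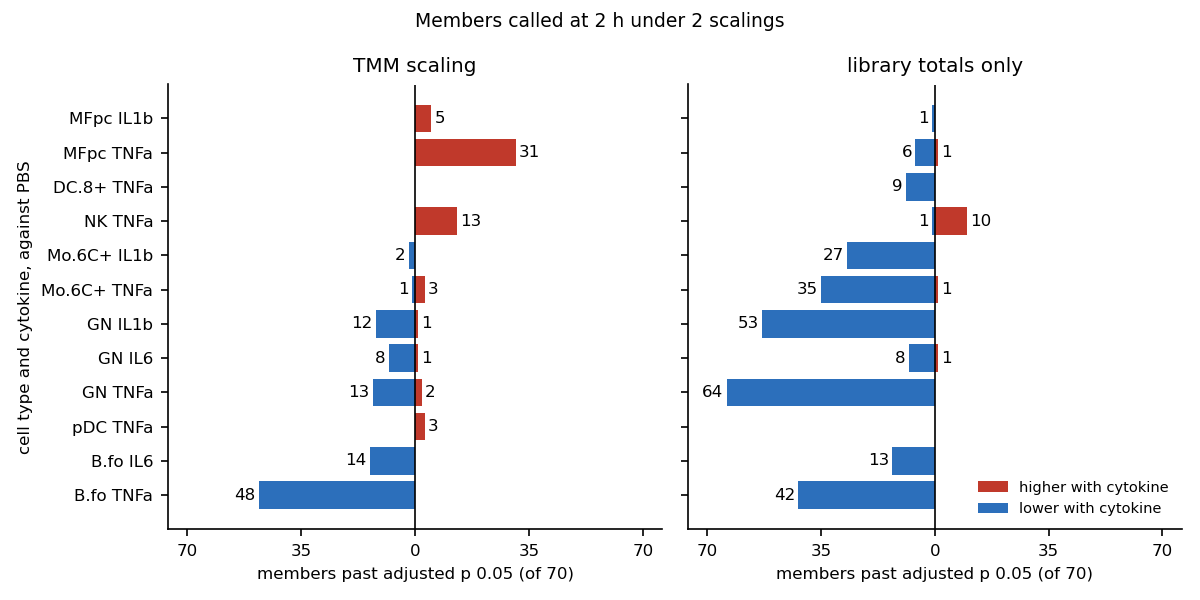
Members called higher (up) and lower (down) than PBS in each 2 h comparison with at least 3 calls under either scaling; each comparison has bars for TMM scaling and for library totals. Calls in MFpc, Mo.6C+ and most of GN change with the scaling (MFpc with TNFa, 31 higher under TMM and 6 lower by totals), while B.fo with TNFa has 48 and 42 lower.

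In follicular B cells 48 of the 70 members fell with TNFa and 14 with IL6, and no member rose with any cytokine. All 70 log2 fold changes were below 0 with TNFa (from -0.97 to -0.10) and with IL6. With TNFa 48 of 70 members were called lower and 0 higher, where 1.7% of all 13697 genes were called lower, with a median of -0.46 against 0.01 over all genes. With IL6 14 were called lower and 0 higher, where 0.212% of all genes were, with a median of -0.50 against -0.003. With IL1b 0 were called by edgeR (0.745% of all genes were higher and 0.343% lower; 8 members were higher and 1 lower at an unadjusted p under 0.05), and the median was 0.06. All cytokine libraries lay below all PBS libraries for 64 members with TNFa (5.94% of all genes) and for 58 with IL6 (6.71%).

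Among the small subunit genes, Rps29 had 264, 364, 239, 312 and 423 CPM with PBS and 161, 165 and 174 CPM with TNFa in B.fo. All TNFa libraries lay below all PBS libraries, and the log2 fold change was -0.94 (SE 0.18, adjusted p = 0.00491). Rps26, which lines the mRNA exit channel, fell from 703 ± 83.4 (n = 5) to 401 ± 20.1 CPM (n = 3), by -0.81 (SE 0.12, adjusted p = 0.000507). Rps27 had 1409, 1578, 1446, 1449 and 1898 CPM with PBS and 1050, 1042 and 1115 with TNFa (-0.54, SE 0.10, adjusted p = 0.00409), again without overlap. Rps9 had 1351 to 1714 CPM with PBS (median 1494) and 1035, 1051 and 1119 with TNFa (-0.48, adjusted p = 0.0044). With IL6 (2 libraries), Rps2 had 151 and 200 CPM against 285, 350, 333, 308 and 337 with PBS, a log2 fold change of -0.88 (SE 0.14, adjusted p = 0.0137). Rps26 fell by 0.83 on the log2 scale with IL6 (adjusted p = 0.0169).

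Among the large subunit genes in B.fo, Rpl23a, which sits at the tunnel exit where the signal recognition particle docks, had 76.4, 89.7, 68.4, 85.6 and 130 CPM with PBS and 45.1, 43.3 and 49.3 with TNFa (-0.97, SE 0.22, adjusted p = 0.016). Of its exon bases 59.7% lie under Tlcd1 on the opposite strand, which had 1.42 to 5.87 CPM of the library total with PBS and 5.04 to 6.84 with TNFa. Rpl35 fell by 0.89 and Rpl41 by 0.57 on the log2 scale. The most abundant members fell less: Rpl4 had 3257 to 3695 CPM with PBS and 2865 to 2924 with TNFa, with no overlap (-0.26, SE 0.06, adjusted p = 0.0183). With IL6 Rpl37a had 338 and 254 CPM against 427 to 688 with PBS (-0.85, SE 0.18, adjusted p = 0.0452).

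The fall in B.fo was seen under both scalings: by library totals 42 members were lower with TNFa and 13 with IL6. The TNFa and IL6 libraries were deeper than the PBS libraries (6553203 to 9291121 against 2555640 to 4485774 counts). With all B.fo libraries thinned to 2555640 counts, 46 and 24 members were lower, and the PBS libraries had summed shares of 4.43 to 5.33%, the TNFa libraries 3.70 to 3.82% and the IL6 libraries 3.41 to 4.02%. Mitochondrial counts made up 0.948 to 1.30% of PBS, 1.16 to 1.37% of IL6 and over 1.30% of TNFa libraries, and the summed B.fo marker list was 8915 to 9554 CPM with TNFa against 10246 to 10542 with PBS. Other short coding genes (transcripts of at most 834 bases, n = 345) had medians of -0.26 with both cytokines, and 24 of them were called lower with TNFa. The part of transcript length, mitochondrial counts or marker levels in the fall was not tested. Leaving out TNFa replicate 1, 2 or 3 left 18, 12 or 29 members called, and leaving out IL6 replicate 1 or 2 left 2 or 0. Leaving out PBS replicate 1, 2, 3, 4 or 5 gave 7, 4, 23, 7 or 6 with IL6.

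**Figure D3:**
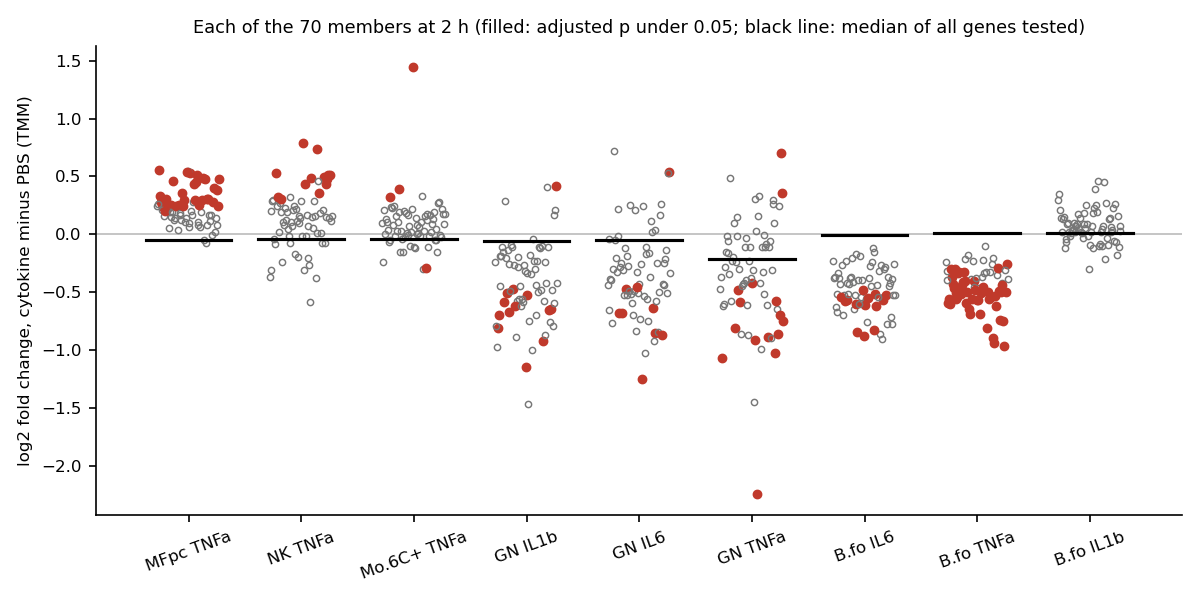
Log2 fold change against PBS (y axis, TMM scaling) of each of the 70 members in 9 comparisons of the 2 h screen; filled points have an adjusted p under 0.05 and the black line is the median of all genes tested. All points of B.fo with IL6 and TNFa lie below 0, most points of MFpc with TNFa lie above 0 (under TMM; by library totals their median is below 0), and GN points spread widest.

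The cytokines were also set against each other in B.fo. Of the 38 genes higher with IL1b than with TNFa (0.277% of all genes tested), 31 were members, and 32 members were called by library totals and 43 after thinning. Of the 53 genes higher with IL1b than with IL6 (0.387%), 15 were members. Between TNFa and IL6 edgeR called 0 members. The largest differences were those of Rps21, 0.87 (SE 0.16) for IL1b minus TNFa and 0.95 (SE 0.19) for IL1b minus IL6 on the log2 scale, and Rps29 with 0.91 for IL1b minus TNFa.

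In peritoneal macrophages TNFa raised 31 of 70 members and lowered 0 under TMM scaling, where 26.6% of all 12079 genes were called higher, but by library totals 1 was higher and 6 were lower. The median log2 fold change was 0.23 against -0.05 over all genes under TMM, and -0.08 against -0.36 by library totals. Scaling shifts all genes alike, so the gap between the members' median and that of all genes is nearly the same in both. The 31 calls included 25 whose groups did not overlap, while 86.9% of all genes called higher did not overlap. Leaving out PBS replicate 2 or TNFa replicate 1 left 20 calls. The summed share of the library was 2.08 to 2.34% with TNFa against 2.13 to 2.61% with PBS, and 17168 to 17674 genes were detected against 18149 to 18795.

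The members raised most in MFpc were Rpl5 and Rps9. Rpl5, which carries the smallest ribosomal RNA into the large subunit and also binds Mdm2, had 150.5, 121.8, 154.9, 138.4 and 143.5 CPM with PBS and 218, 174.4 and 234.2 with TNFa (0.56, SE 0.12, adjusted p = 0.000435). Rps9 had 753, 711, 750, 885 and 708 CPM with PBS and 1146, 1068 and 1097 with TNFa (0.54, SE 0.08, adjusted p = 7.22e-06). Neither gene's groups overlapped. Rpl10a rose from 135 to 174 CPM with PBS to 207 to 214 with TNFa (0.53, SE 0.09, adjusted p = 4.82e-05), and had 186, 184 and 176 CPM with IL1b (0.33, adjusted p = 0.00708). Rpl4 rose less, from 1568 to 1738 CPM to 1881 to 2097 (0.25, SE 0.07, adjusted p = 0.00542). With IL1b 5 members were higher and 0 lower (20.7% of all genes were higher), but 0 were higher and 1 lower by library totals. Without PBS replicate 2 or IL1b replicate 2, 1 was higher, and without IL1b replicate 3, 3. With IL6 0 were called (9.16% of all genes were higher; 5 members were higher at an unadjusted p under 0.05).

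In NK cells 13 members rose with TNFa and 0 fell, where 7.65% of all 13524 genes rose, and by library totals 10 rose and 1 fell. The median was 0.15 against -0.04 over all genes. Rpl10a had 152, 137, 158, 157 and 159 CPM with PBS and 257, 272 and 265 with TNFa (0.79, SE 0.12, adjusted p = 9.93e-05), with no overlap. Rpl35, at the tunnel exit, had 89.3 to 110 CPM with PBS and 129, 159 and 221 with TNFa (0.74, SE 0.17, adjusted p = 0.00541); 66.2% of its exon bases lie under Wdr38 on the opposite strand, which stayed at 6.54 to 13.5 CPM with PBS and 4.06 to 16.9 with TNFa. Rpl3 had 864 to 1108 CPM with PBS and 1356 to 1508 with TNFa (0.53, SE 0.10, adjusted p = 0.00082). IL1b raised Rpl10a (0.49, adjusted p = 0.0218) and Rpl3 (0.41, adjusted p = 0.0215) in NK, and no other member, where 2.17% of all genes were higher. Without IL1b replicate 1 or 3, 0 members were higher, and without PBS replicate 3, 4 or 5, 1.

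In neutrophils more members were called lower than higher with each cytokine, though with TNFa only at about the share of all genes. Rpl4 was called higher with all 3 under TMM scaling. With IL1b 12 members were lower and 1 higher (9.44% of all 11201 genes were lower and 12.9% higher), with IL6 8 and 1 (4.28 and 5.23%), and with TNFa 13 and 2 (19 and 18.5%). The medians were -0.45, -0.38 and -0.32 against -0.05, -0.05 and -0.21 over all genes. By library totals 53 were lower and 0 higher with IL1b and 64 and 0 with TNFa, where the medians of all genes moved to -0.49 and -0.99. These counts by totals carry no share of all genes and are not read as particular to the members. With IL6 the counts were 8 and 1 under both scalings. Beside these changes the summed share fell from 0.541 to 0.700% with PBS to 0.310 to 0.408% with IL1b, 0.454 to 0.512% with IL6 and 0.283 to 0.342% with TNFa. The summed GN marker genes rose from 49275 to 62835 CPM with PBS to 88594 to 93636 with IL1b, 69946 to 78923 with IL6 and 80206 to 92686 with TNFa, and the mitochondrial counts from 0.0251 to 0.0438% to 0.0463 to 0.113% over the cytokine groups. The part of these shifts in the members' changes was not tested.

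Rpl17, a protein at the tunnel exit, was lowered by all 3 cytokines in GN: it had 98.9, 115, 140, 144 and 142 CPM with PBS, 76.6, 70.4 and 93.6 with IL1b (-0.67), 72.8, 79.4 and 87.4 with IL6 (-0.68) and 65.4, 75.9 and 77.5 with TNFa (-0.81, SE 0.17, adjusted p = 0.00115). No cytokine library reached the lowest PBS library. Rps2 fell with IL1b from 21.4 to 35.5 CPM to 21.1, 6.27 and 14.9 (-1.15, SE 0.36, adjusted p = 0.0274), and Rpl18 by -0.92. With IL6, Rps21 fell from 26.7 to 54.0 CPM to 17.47, 18.40 and 18.97 (-1.25, SE 0.28, adjusted p = 0.0103) and Rpl37 by -0.87. Rpl12 had 7.24, 8.84, 6.84, 9.97 and 19.3 CPM with PBS and 1.58, 3.50 and 1.54 with TNFa (-2.24, SE 0.56, adjusted p = 0.00421), and Rpl5 fell by 1.07 on the log2 scale with overlap. The Rpl12 levels with TNFa stand for few counts, in libraries of 4137869 to 5370756 counts.

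Rpl4 had 148, 137, 155, 142 and 168 CPM in GN with PBS, 199, 187 and 216 with IL1b, 215, 234 and 206 with IL6 and 176, 197 and 203 with TNFa. Its log2 fold changes were 0.42 (SE 0.12, adjusted p = 0.0179), 0.54 (SE 0.12, adjusted p = 0.0096) and 0.35 (SE 0.12, adjusted p = 0.0299) under TMM, and those with IL1b and TNFa turned to -0.02 and -0.43 by library totals. As a share of the members' counts, which no scaling can change, Rpl4 went from 2.89 ± 0.28% with PBS to 4.87 ± 0.26%, 5.28 ± 0.27% and 4.25 ± 0.13%. Rps19 was called higher with TNFa (0.70, adjusted p = 0.0371) with overlapping groups, and turned to -0.08 by library totals. Rps9 kept its large share: 16.2 ± 1.7% with IL1b, 14.6 ± 0.79% with IL6 and 17.0 ± 0.53% with TNFa (SD, n = 3 each).

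The counts in GN rested on few libraries. Without IL1b replicate 2 or 1, 0 or 5 members were lower with IL1b, and without IL1b replicate 3 none was higher. Without IL6 replicate 1, 2 or 3, 0, 2 or 4 were lower with IL6, and without PBS replicate 1, 4 or 5, 14, 5 or 5. Without TNFa replicate 1, 2 or 3, 5, 6 or 8 were lower with TNFa, and without PBS replicate 4 or 5, 8 or 7. Without PBS replicate 2 or 4, or TNFa replicate 2 or 3, 0 were higher with TNFa, and without PBS replicate 1 or 3, 1.

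In red pulp macrophages all 70 log2 fold changes with IL6 were below 0, with a median of -0.63 against -0.02 over all genes and -0.62 by library totals, yet edgeR called 0 members (0% of all genes were called lower; smallest adjusted p = 0.138), while 60 were lower at an unadjusted p under 0.05 (4.63% of all genes) and DESeq2 called 20 lower (1.29% of the 6025 genes it gave an adjusted p). The summed shares were 1.21 to 1.58% with IL6 and 1.63 to 2.53% with PBS, so the groups did not overlap, and all IL6 libraries lay below all PBS libraries for 46 members (2.83% of all genes). Rpl32 had 414, 562, 450, 355 and 497 CPM with PBS and 281, 219 and 231 with IL6 (-0.90, SE 0.23, adjusted p = 0.142). Haemoglobin and other erythroid marker genes summed to 1285 to 48927 CPM over the MFrp libraries with PBS and 1839 to 3454 with IL6, and their part in the spread was not tested. With TNFa, Rpl10a had 112 to 162 CPM with PBS and 171, 192 and 225 with TNFa (0.60, SE 0.17, adjusted p = 0.0175) and Rps9 rose by 0.50 (adjusted p = 0.0187). No other member was called in MFrp (11.5% of all genes were higher with TNFa), and by library totals none was. Both calls were lost without PBS replicate 1 or TNFa replicate 3, and 1 without TNFa replicate 2.

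In Ly6C+ monocytes few members were called under TMM and many by library totals. With TNFa 3 members were higher and 1 lower (24.3 and 24.4% of all genes), with a median of 0.07, but 1 was higher and 35 were lower by library totals, with a median of -0.35 beside -0.47 over all genes. With IL1b 2 were lower (17.6% of all genes), among them Rpl32 (-0.40), and 27 by library totals. No share of all genes is given for the counts by library totals, so they are not read as particular to the members. Rps2 had 129, 115, 94.8, 89.5 and 111 CPM with PBS and 254, 312 and 319 with TNFa (1.45, SE 0.25, adjusted p = 0.000173). Without PBS replicate 5 there were 7 members higher with TNFa, and without TNFa replicate 2 there was 1. The 1 lower call was lost without PBS replicate 2, 4 or 5 or TNFa replicate 1 or 2. With IL1b, 1 was lower without PBS replicate 3 or 5 or IL1b replicate 2 or 3. In MZB Rps2 went the other way with TNFa, by -1.42 (SE 0.29, adjusted p = 0.00555), where 1.08% of all genes fell, a call lost without TNFa replicate 1. In pDC TNFa raised Rpl28, Rpl38 and Rps23, by 0.39, 0.39 and 0.40 (7.23% of all genes rose), and none by library totals. The count was 0 without TNFa replicate 1 or 3, 1 without TNFa replicate 2 or PBS replicate 1, 2 without PBS replicate 5, 6 without PBS replicate 3 and 9 without PBS replicate 4.

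Whether a response differed between types was tested in a fit of all screen libraries, as the response of a type minus the mean response of the other types (21905 genes). For TNFa the median difference in B.fo was -0.42 against 0.22 over all genes. There 16 members fell more than in the other types (1.62% of all genes), and 5 by library totals (0.977%). They included Rpl23a (-0.95, SE 0.22), Rps29 (-0.94, SE 0.25), Rps26 (-0.79, SE 0.17) and Rps9 (-0.55, SE 0.12). For IL6 edgeR called 0 members in B.fo. In GN 33 members were lower than in the other types with TNFa (12.9%), 16 lower and 2 higher with IL1b (5.58 and 7.61%), and 8 lower and 4 higher with IL6 (1.93 and 8.15%). By library totals these were 63 lower (21.1% of all genes), 63 lower (13.4%), and 16 lower and 3 higher (2.89 and 6.75%). Rpl12 led with TNFa (-2.48, SE 0.38), from few counts in GN, and Rpl4 was higher with IL1b (0.50, SE 0.11) and IL6 (0.69, SE 0.11).

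With IL6, 32 members were lower in MFrp than in the other types (1.43% of all genes), and 30 by library totals (1.42%). The median difference was -0.57 against 0.09 over all genes. Rpl32 (-0.83, SE 0.18), Rpl14 (-0.82, SE 0.17) and Rps18 (-0.81, SE 0.16) lay lowest. This fit pools the spread over all types, whereas the comparison of IL6 with PBS within MFrp called no member. Single members were higher than in the other types with TNFa: Rps9 in MFpc (0.42, SE 0.12), where 4.23% of all genes were higher, Rpl10a in NK (0.73, SE 0.16, 1.58% of all genes), Rps9 and Rpl10a in MFrp (0.47 and 0.58, 5.43%) and Rps2 in Mo.6C+ (1.44, SE 0.32, 7.35%). Rps2 was lower in MZB (-1.58, SE 0.35), where 1.09% of all genes were.

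Cytokines were compared in the same way in 4 other types, and MFrp had the most calls: 25 members were higher with TNFa than with IL6 (7% of all genes), with a median of 0.69 against -0.10 over all genes, but 0 by library totals (median 0.37 against -0.42). Rpl23a (1.18, SE 0.37) and Rps19 (1.06, SE 0.27) differed most. In MFpc 16 were higher with TNFa than with IL6 (19.6%), and 0 by library totals. In Mo.6C+ 5 were (18.6%), led by Rps2 (1.38, SE 0.29), and 1 by library totals. In GN 4 were higher with TNFa (15.6%), led by Rpl37 (0.97, SE 0.20), and 1 was lower (16.8%). By library totals 0 were higher and 42 lower in GN, where 774 and 4450 of all 11201 genes were. For IL1b minus TNFa a single member was lower in each of 3 types: Rps9 in MFpc (-0.31, SE 0.09, 7.82% of all genes), Rps2 in Mo.6C+ (-1.63, SE 0.30, 6.55%) and Rpl37 in GN (-0.75, SE 0.20, 10.1%). By library totals 0 were lower in MFpc and GN and 1 in Mo.6C+.

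In the MFpc time course some members were called higher under TMM at 2, 4 and 8 h, and 0 at 24 h. At 4 and 8 h their share was below that of all genes. At 2 h after TNFa 17 members were higher (18.1% of all genes), at 4 h 2 (18.7%), at 8 h 6 (15.6%) and at 24 h 0 (3.81%; 6 at an unadjusted p under 0.05), with 0 lower at each time under TMM. By library totals none was higher at any time, and 0, 1, 2 and 0 were lower. Rps9 had 537 and 536 CPM with PBS, 976 and 977 at 2 h (0.86, SE 0.15, adjusted p = 0.000738), 808 and 799 at 4 h (0.58, adjusted p = 0.0092), 878 and 774 at 8 h (0.62, adjusted p = 0.00825) and 663 and 567 at 24 h. Rpl10a had 125 and 126 CPM with PBS, 217 and 193 at 2 h (0.71, SE 0.19, adjusted p = 0.011) and 170 and 201 at 4 h (0.56, adjusted p = 0.0346). Both genes were highest at 2 h. Rps6, the substrate of the S6 kinases, was raised at 8 h, from 210 and 205 to 400 and 289 CPM (0.73, SE 0.19, adjusted p = 0.0125). With 2 libraries a group, leaving out any library left 1 to 3 calls at 2 h and 0 or 1 at 4 h. At 8 h, 0 were higher without either PBS library and 1 without the 8 h replicate 1, and 10 were lower without the 8 h replicate 2. Without the 24 h replicate 2, 7 were higher at 24 h.

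In the Mo.6C+ course 2 members were higher and 2 lower at 2 h (19.7 and 20.6% of all genes), 3 lower at 4 h (16.6%), 2 lower at 8 h (10.5%) and 0 at 24 h (1.72%; 4 lower at an unadjusted p under 0.05). By library totals 27, 16, 1 and 0 were lower, given without the share of all genes and so not read as particular to the members. Rpl32 was lowest at 4 h, at 317 and 332 against 548 and 491 CPM (-0.68, SE 0.19, adjusted p = 0.0147), and Rpl27a fell at 8 h (-0.62, adjusted p = 0.0447). At 2 h Rpl35 (0.92, adjusted p = 0.0257) and Rps25 (0.50, adjusted p = 0.0468) were higher and Rpl22 (-0.75, adjusted p = 0.0397) lower. Rps2 had 248 and 214 CPM with PBS and 76.2 and 134 at 2 h (-1.13, SE 0.25, adjusted p = 0.0038), the direction opposite to its rise in the screen at the same time after TNFa. Without the 2 h replicate 2, 24 members were lower and 6 higher at 2 h, and without any other library 1 was lower and 0 higher. Leaving out any library left 1 call at 4 h and 0 or 1 at 8 h.

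**Figure D4:**
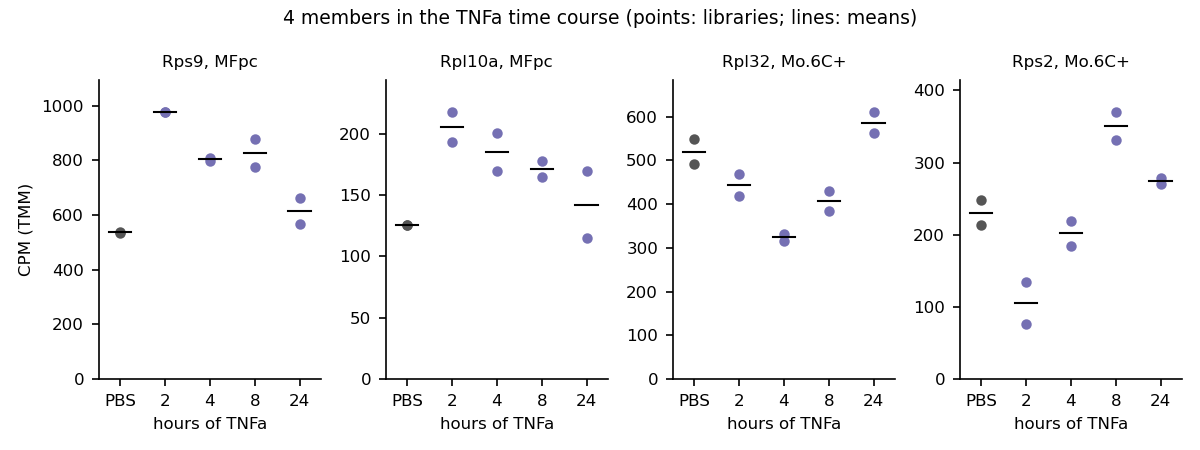
Level (y axis, CPM under TMM scaling) of Rps9 and Rpl10a in MFpc and of Rpl32 and Rps2 in Mo.6C+ with PBS and at 2, 4, 8 and 24 h after TNFa (x axis); points are libraries and short lines are group means. Rps9 peaks at 2 h (976 and 977 CPM) and Rpl32 is lowest at 4 h (317 and 332 CPM).

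With LPS, edgeR called 0 members in Mo.6C+ (10.2% of all 11068 genes were higher and 8.38% lower), 1 was higher at an unadjusted p under 0.05, and DESeq2 called 0 as well. The median was -0.004, but it was -0.17 without control replicate 2 and 0.17 without LPS replicate 1. These libraries stood apart in some members. Rpl10 had 609, 197 and 567 CPM in control libraries and 236, 516 and 613 with LPS, and Rpl35 had 115, 293 and 83.4 against 213, 136 and 81.9. Without either library 0 members were called, and leaving out both at once was not tested. The summed share was 1.67, 2.02 and 1.89% with LPS and 2.89, 1.94 and 2.59% in control libraries, which overlapped.

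Other genes of ribosome making and translation were followed in lists. The 25 ribosome biogenesis genes, which act in the nucleolus, were called higher in these numbers: 24 in MFpc with TNFa (median 1.15, 26.6% of all genes higher) and with IL1b (1.05, 20.7%), 22 in NK with TNFa (1.30, 7.65%) and 15 in Mo.6C+ with TNFa (0.59, 24.3%), with 0 lower in each. By library totals 20, 22, 22 and 9 were higher, and 3 were lower in Mo.6C+. In B.fo with TNFa 3 rose and 0 fell (0.02, 1.81% of all genes higher), also by library totals. The genes called in the most comparisons were Nop58 (29), a box C/D snoRNP core protein, Gnl3 (26), a nucleolar GTPase, Wdr43 (25) and Nolc1 (21). Nop58 rose by 1.87 (SE 0.10) in MFpc and 1.95 (SE 0.16) in NK with TNFa.

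Of the 8 ribosomal proteins whose symbols fall outside the rule, 5 rose with TNFa in MFpc (26.6% of all genes; 1 by library totals), among them Rack1 (0.60, SE 0.11) and Rplp0 (0.32, SE 0.07), and 3 fell in B.fo (1.7% of all genes; 3 by library totals), among them Fau (-0.64, SE 0.12) and Rplp0 (-0.30, SE 0.07). Of 18 other translation factors with TOP mRNAs, 11 rose and 1 fell in MFpc with TNFa, where 26.6 and 26.7% of all genes did, but 1 rose and 4 fell by library totals. In B.fo 0 of them rose and 2 fell, and 1 fell by library totals. SnoRNA host genes are spliced TOP RNAs too: of 7, 5 rose in MFpc with TNFa and 4 by library totals, among them Gas5 (0.72, SE 0.09) and Snhg1 (1.47, SE 0.16). Of the 78 mitochondrial ribosomal proteins, 20 rose and 1 fell in NK with TNFa (7.65 and 7.93% of all genes; 15 and 1 by library totals), and 0 rose and 2 fell in B.fo with TNFa. Among 14 genes that control TOP translation, Larp1 rose by 1.94 (SE 0.14) in MFpc and 1.38 (SE 0.19) in NK with TNFa. Ddit4, an inhibitor of mTORC1, rose by 1.96 (SE 0.29) in B.fo with TNFa and by 1.89 (SE 0.30) with IL1b. Called in the most comparisons, in either direction, were Ddit4 (21), Larp1 (19), Eif4ebp2 (15) and Eif4ebp1 (13). Counts of these 14 genes higher and lower with cytokine are not given here, so Larp1 and Ddit4 do not stand for the list. With PBS, GN was lower than the other types in all 7 host genes, all 18 translation factors, 24 of the 25 biogenesis genes and 64 of the 78 mitochondrial ribosomal proteins, where 31.3% of all genes were lower. By library totals these counts were 7, 18, 24 and 73, beside 43.7% of all genes.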

How the data were processed

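RNA-seq was made from 1000 sorted cells per library, in 209 libraries. The submitters' processing notes name STAR 2.7.3a, featureCounts and the mm10 build. No source used here gives the annotation, the use of strand or the handling of reads with several matches. The authors deposited raw counts per gene symbol for all libraries in a single table, and every column was mapped to a library by its title. From these counts, each cell type and experiment was fitted with edgeR 4.0.16 (R 4.3.3, TMM scaling, filterByExpr, glmQLFit and glmQLFTest), with a mean per group, Benjamini-Hochberg adjustment over all genes tested and a threshold of 0.05. Gaps between types were tested in a fit of all PBS libraries and in a fit of all screen libraries, whose dispersion trend came from every 8th gene. Alternatives were library totals, DESeq2 1.42.0 size factors and test, TMM without the members, no filter, a replicate block, each library left out, and thinning in B.fo. Library totals for the other gene lists were added after seeing the data. The procedure was checked on simulated counts. No pair of libraries was identical among 251 compared, and chi-square per degree of freedom ran from 2.94 to 68.5.

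The members and lists were chosen with earlier results of these data known. Named genes are those called in the most comparisons (5 in each direction), the 2 raised and 2 lowered most in comparisons with 8 or more called members and at each time, those of the 5 widest and 3 narrowest ranges over types, the called extremes of each type with PBS, the 3 highest and lowest per length, and up to 4 of each other list. Others were chosen after their values were seen: Rps26 and Rpl35, Rps21 and those named in the comparisons of responses between types and between cytokines, the changes of Rps9 in B.fo, of Rpl10a, Rpl4 and Rpl3 outside their own comparisons, and Rpl28, Rpl38 and Rps23. Lengths and overlaps are from GENCODE vM21, which holds 52936 of the 55011 symbols. Some members that this rule names are not reported here.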

Additional observations from a re-analysis of the deposited data

Results flagged for a closer look

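In 32 checks of 4 or 5 PBS libraries for a library far from the others, 3 flagged one, and chance alone gives about 1 in 20. The checks share libraries, and Rpl4 in GN entered once for each cytokine on the same PBS values, so this rate is a rough guide. The first pDC library with PBS had a summed share of 2.62% of its counts, against 2.92 to 3.02% in the other 4. In MFpc with PBS, Rps9 had 885 CPM in replicate 4 against 708 to 753 in the others. In GN with PBS, Rpl12 had 19.3 CPM in replicate 5 against 6.84 to 9.97 in the others.

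The response of a type differed from the mean response of the other types, by a direct test, in these counts of members. The share of all genes is in brackets. With IL1b, GN had 2 higher and 16 lower (7.61 and 5.58%). With IL6, GN had 4 higher and 8 lower (8.15 and 1.93%) and MFrp had 32 lower (1.43%). With TNFa, GN had 33 lower (12.9%), B.fo 16 lower (1.62%) and MZB 1 lower (1.09%). Also with TNFa, MFrp had 2 higher (5.43%), and MFpc, NK and Mo.6C+ had 1 higher each (4.23, 1.58 and 7.35%). The counts of higher members, and the count in MZB, were near or below the share of all genes.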

How the results depend on the processing

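Every member had counts in every library, but some had few, such as Rpl12 in GN with TNFa. Groups of 2 or 3 libraries also set limits. Library totals in place of TMM moved most counts, and those of all genes too. The values that follow are higher/lower counts by library totals. Against PBS they were 1/6 for MFpc with TNFa, 1 lower for NK with TNFa, 0/53 and 0/64 for GN with IL1b and TNFa, 27 lower and 1/35 for Mo.6C+ with IL1b and TNFa, and 2/11 over the other comparisons (12/1 under TMM). In the course they were 0/27, 16 lower and 1 lower at 2, 4 and 8 h in Mo.6C+ and 0 higher, 0/1 and 0/2 in MFpc. With PBS they were 2/45 for MFpc, 6/9 for NK, 50/0 for Tgd, 7/10 for Mo.6C+, 0 higher for GN and 3 lower for pDC. For responses against the other types they were 0/63, 16 lower and 63 lower for GN with IL1b, IL6 and TNFa, 14 higher for NK, 1 lower for Mo.6C+ and 5 lower for B.fo with TNFa. For TNFa minus IL6 they were 0/1 for MFpc (16/0 under TMM), 0 for MFrp (25/0), 0/42 for GN (4/1) and 1/7 for Mo.6C+ (5/0). Reversed were Rpl4 in GN with IL1b (-0.0194) and TNFa (-0.43), Rps19 in GN with TNFa (-0.0846) and Rps9 in GN with PBS (-0.10). The cause was not tested.

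Without a filter, which tests more genes, counts were 7/1 for NK with TNFa, 0/2, 3 lower and 0/4 for GN with IL1b, IL6 and TNFa, 25 lower for B.fo with IL6, 1 lower and 1/0 for Mo.6C+ with IL1b and TNFa, 20/11 over the other comparisons, 1/4 at 2 h and 1/1 at 8 h in Mo.6C+, 6 higher at 2 h and 1 lower at 8 h in MFpc, and 1 higher with LPS. DESeq2's test gave 1 lower for NK with TNFa, 51 lower for B.fo with IL6, 4 higher at 2 h and 5 lower at 8 h in Mo.6C+, and 24/26 over the other comparisons. DESeq2 size factors gave 2 lower over the other comparisons and, with PBS, 0 higher in NK and 1 higher in MFrp. TMM without the members gave 12 lower for pDC with PBS. Thinning, chosen after seeing the data, gave 24 lower for B.fo with IL6 and 27 higher for IL1b minus IL6. Other scalings for the comparisons of cytokines were also chosen after seeing the data.

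Replicate numbers did not pair the samples: in 0 of 14 types was the correlation of every same-numbered pair over 0.1 (medians -0.055 to 0.032). With the replicate block, counts were 0/2, 1 lower and 0/2 for GN with IL1b, IL6 and TNFa, 1 and 11 lower for B.fo with IL6 and TNFa, 0 lower for Mo.6C+ with IL1b and with TNFa, 1 higher at 2 h in the Mo.6C+ course and 20 higher over the other comparisons, and the other counts stayed within 1.5 times.

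With each library left out in turn, counts against PBS ran from 20 to 36 higher for MFpc with TNFa, 11 to 13 higher and 0 to 2 lower for NK with TNFa, 0 to 18, 0 to 14 and 5 to 15 lower and 0 to 1, 0 to 1 and 0 to 2 higher for GN with IL1b, IL6 and TNFa, 0 to 23 and 12 to 50 lower for B.fo with IL6 and TNFa, 1 to 2 lower for Mo.6C+ with IL1b, and 1 to 7 higher and 0 to 1 lower with TNFa. In the Mo.6C+ course they were 0 to 6 higher and 1 to 24 lower at 2 h, 1 lower at 4 h and 0 to 1 at 8 h. In the MFpc course they were 1 to 3, 0 to 1, 0 to 8 and 0 to 7 higher at the 4 times and 0 to 10 lower at 8 h, and 0 to 1 higher with LPS. With PBS they were 1 to 5 lower for MFpc, 0 to 1 higher and 17 to 25 lower for NK, 2 to 5 lower for Tgd, 0 to 1 higher for MFrp and 3 to 12 lower for pDC.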

Other observations

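With PBS, Rps2 and Rps9, both at the mRNA entry side of the small subunit, were at 62.6 ± 13 and 1639 ± 147 CPM (SD, n = 5) in GN, and at 545 ± 70 and 1529 ± 130 CPM (n = 4) in DC.8+. In the 5 T.4 libraries they were at 516 ± 201 and 1513 ± 170 CPM. With TNFa at 2 h, Rps2 rose in the Mo.6C+ libraries of the screen (1.45, SE 0.25) and fell in MZB (-1.42, SE 0.29) on the log2 scale. It fell in the Mo.6C+ time course (-1.13, SE 0.25), where the control was PBS at 24 h and not at 2 h. The Rps2 levels with TNFa at 2 h also differed between the course and the screen, and the cause was not tested.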
